A study of Schizosaccharomyces pombe with 2 samples.

Results

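The 36 introns described here belong to 29 fission yeast (Schizosaccharomyces pombe) genes with a name from mating or meiosis. They are the lines of the table of annotated introns whose gene name begins with mug, meu, mei, mes, mcp, spo, ste, rec, rem, rep, dmc, hop or moa followed by a digit, and they make up 2.79% of the 1292 distinct introns of 1081 genes in that table. No line of these genes was repeated. The strain was 972 h-, which has a single mating type, with dbr1 deleted in all samples, so there was no comparison with cells that have dbr1. The RNA came from a pool of 41 conditions of growth or treatment. The labels used here do not say whether any of them held mating or sporulating cells. Circular RNA was cut from 2-dimensional gels, first 7.5% acrylamide and then 15% in the short run or 20% in the long run, with 1 library from each. By the names the authors gave them, the tables used for these introns belong to the short run.

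When nitrogen runs out, cells of opposite mating type signal through pheromones and a MAP kinase cascade, fuse, pass through meiosis and pack the products into spores. Many genes of this programme are transcribed little in growing cells, and several of their introns, those of the meiotic cyclin gene rem1 and of mes1 among them, are known for splicing that depends on meiosis. An excised intron is a lariat, a circle closed at an adenosine near the 3′ splice site. Dbr1 opens that circle, so that introns accumulate as circles without it. Peak reads are the authors' counts over an intron in the circular fraction, and branch reads are those that crossed the branch. Neither was normalised, and a count depends on how much of the transcript was made, how it was spliced, and how well a circle of that size was recovered, which cannot be told apart here.

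The introns the results turn on are printed first. They are the 4 highest and 3 lowest by peak reads, all listed introns of mug64, the gene with most of them, and intron 1 of mug182, added after its values were seen because intron 3 of the same gene is among the lowest. Each is read 5′ to 3′ from RefSeq's ASM294v3 assembly at the positions in the authors' table. Capitals mark the first and last 2 bases and, where branch reads were listed, the 7-nt branch sequence.
mug64 intron 1 (chr1:1135777-1135931, minus strand): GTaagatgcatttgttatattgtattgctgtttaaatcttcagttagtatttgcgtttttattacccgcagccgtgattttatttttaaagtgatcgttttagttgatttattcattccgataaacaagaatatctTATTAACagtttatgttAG
mug64 intron 3 (chr1:1135403-1135516, minus strand): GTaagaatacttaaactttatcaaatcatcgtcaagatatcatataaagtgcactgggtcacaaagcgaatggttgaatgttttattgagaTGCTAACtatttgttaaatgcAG
mug64 intron 4 (chr1:1135062-1135194, minus strand): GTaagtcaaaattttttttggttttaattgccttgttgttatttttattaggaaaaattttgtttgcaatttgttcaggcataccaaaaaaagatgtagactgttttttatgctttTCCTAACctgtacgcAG
spo14 intron 2 (chr2:1891396-1891542, minus strand): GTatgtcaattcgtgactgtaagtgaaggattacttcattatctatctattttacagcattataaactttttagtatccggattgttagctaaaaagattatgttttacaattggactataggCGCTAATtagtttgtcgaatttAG
mug71 intron 1 (chr2:774486-774580, plus strand): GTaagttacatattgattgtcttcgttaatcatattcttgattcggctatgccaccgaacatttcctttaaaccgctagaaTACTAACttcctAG
mug182 intron 1 (chr1:3686601-3686709, minus strand): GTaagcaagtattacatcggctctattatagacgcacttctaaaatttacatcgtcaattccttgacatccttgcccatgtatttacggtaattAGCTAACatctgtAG
mug182 intron 3 (chr1:3685990-3686073, minus strand): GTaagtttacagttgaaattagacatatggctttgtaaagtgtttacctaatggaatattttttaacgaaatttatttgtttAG
mug8 intron 1 (chr1:2445413-2445472, plus strand): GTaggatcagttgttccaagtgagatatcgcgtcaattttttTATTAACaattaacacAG
mug65 intron 2 (chr1:715722-715993, plus strand): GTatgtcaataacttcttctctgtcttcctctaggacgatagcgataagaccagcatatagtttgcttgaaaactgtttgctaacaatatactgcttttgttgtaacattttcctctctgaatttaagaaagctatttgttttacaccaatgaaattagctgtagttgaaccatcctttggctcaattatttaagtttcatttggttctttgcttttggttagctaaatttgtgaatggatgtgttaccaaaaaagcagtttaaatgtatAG
All 36 introns began with GT and ended with AG, as did all 1292 of the table, and 35 of the 36 matched an annotated intron of ASM294v3 at both ends, with the same intron number.

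The gene names are a mixed guide to function. The prefixes mug and meu were given to genes whose transcripts rise in meiosis, whatever their product does. In the present annotation 5 of the genes have another name: mug71 is dph6, mug152 is the telomere-binding gene teb1, mug179 is the autophagy gene atg1802, mug185 is epr1 with an annotated co-chaperone product, and mug186 is the sorting nexin gene snx41. A further 6 kept a mug name and have an annotated product that does not name meiosis. These are mug161 (a CwfJ family splicing factor), mug182 (an NADHX epimerase), mug16 (an UNC-50 family protein of vesicle transport), mug64 and mug137 (BAR domain proteins, a fold that binds curved membranes) and mug72 (an oxidoreductase). For mug64 and mug72 the annotation names only a domain and an activity, not a process. Among the spo genes, spo20 is also known as sec14, a phospholipid transfer gene, and spo14 as stl1, an exchange factor. The other name of spo9 is erg20, and its product is annotated as a farnesyl pyrophosphate synthetase. mcp7 is the Mnd1 gene and rec24 was once called mug6. The introns were set in 5 groups by these roles, with their values already known.

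Peak reads of the 36 introns ran from 5 to 38475, with a median of 162.5 (quartiles 11 and 1529.8), against a median of 438 (quartiles 52 and 2947) over the whole table. At least 1000 reads were listed for 10 of them, which is 27.8%, and for 39.5% of the table. Under 20 reads were listed for 12, which is 33.3%, against 14.6% of the table, and within 80 to 200 nt for 7 of 31 (22.6%, against 6.82%). These introns held 108845 of 9296300 peak reads, or 1.17%. Of those reads 59.7% lay in mug64 alone. All of these are values of 1 library with no replicate and no test. Poisson intervals below are at 95% and cover counting error only, since PCR copies are not independent molecules.

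**Figure D1:**
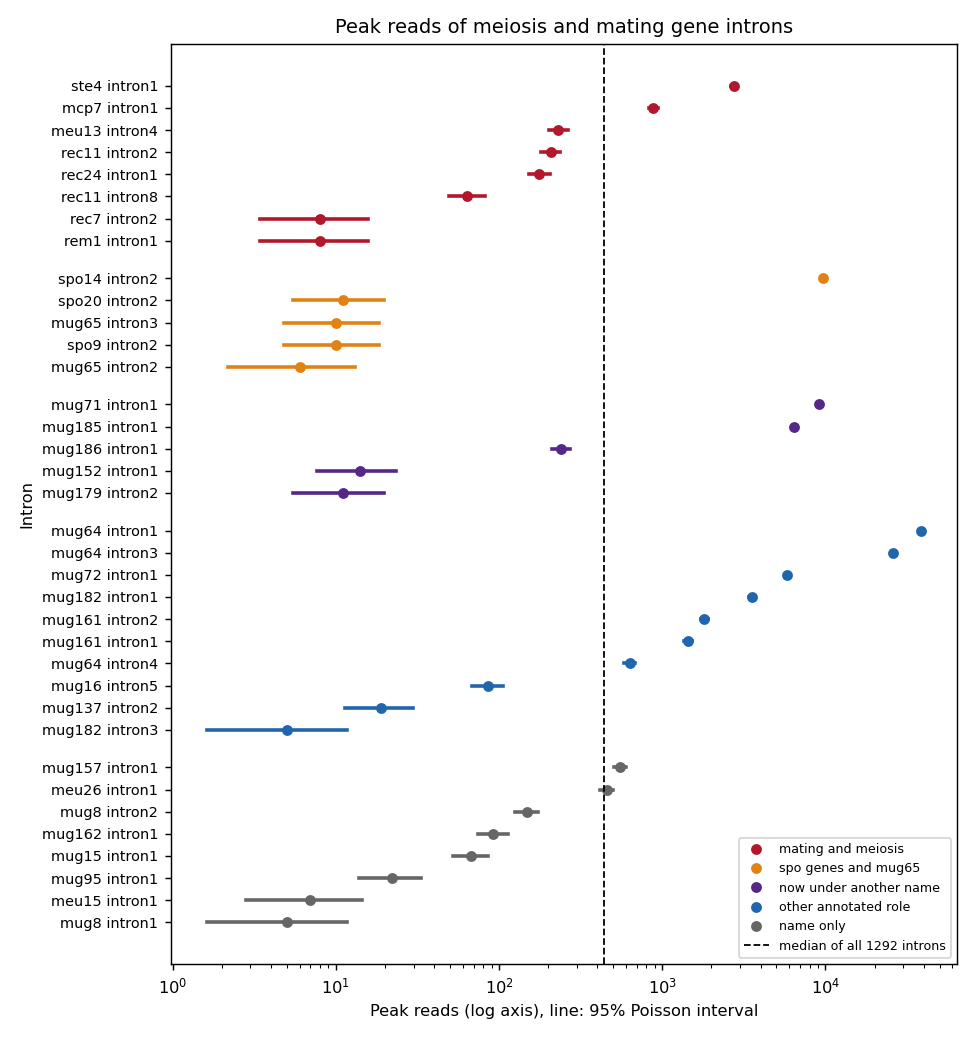
Peak reads of each of the 36 introns on a log axis, grouped by the role of the gene, with lines for the 95% Poisson interval of the count and a dashed line at the table's median of 438. Of the introns with mating and meiosis roles, ste4 at 2743 and mcp7 at 881 stand right of that line, and 4 of the 5 introns of the spo genes and mug65 stand at 11 reads or fewer.

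The genes that act in mating and meiosis themselves had counts on both sides of the table's median of 438. Their 8 introns in 7 genes had a median of 192.5 reads and ranged from 8 to 2743. At least 1000 reads were listed for 1 of the 8, against 39.5% of the table. The highest was the single intron of ste4 (SPAC1565.04c, chr1:1296256-1296413, 158 nt), the adaptor of the pheromone MAP kinase cascade, with 2743 reads (2641 to 2848). The single intron of mcp7 followed with 881 reads (824 to 941). Mcp7 works as a pair with Meu13, the Hop2 protein, in the pairing of homologous chromosomes, and intron 4 of meu13 had 231 reads (202 to 263). Per nt of intron the order was the same, at 17.4 reads per nt for ste4, 9.37 for mcp7 and 1.62 for meu13.

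Genes for the DNA breaks that start recombination differed from each other. The single intron of rec24 had 177 reads (152 to 205), or 1.26 reads per nt, whereas intron 2 of rec7 had 8 reads (3.45 to 15.8), or 0.0762 per nt. Both proteins are needed for meiotic DNA breaks. Intron 2 of rec7 (chr3:1548641-1548745, minus strand, 105 nt) lies under 3 annotated non-coding RNAs of the opposite strand, among them tos1 and tos2. The meiotic cohesin gene rec11 had 208 reads over intron 2 and 64 over intron 8. The single intron of the meiotic cyclin gene rem1 (chr2:1954166-1954250, minus strand, 85 nt) had 8 reads (3.45 to 15.8), or 0.0941 per nt. The table's median for introns between 80 and 99 nt was 200 reads.

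The 5 introns of the spo genes and mug65 had 11 reads or fewer, except that of spo14. The spo names come from sporulation defects. Products of spo14, spo20 and spo9 are placed in secretion, lipid transfer and isoprenoid synthesis, processes that are not particular to spores. Intron 2 of spo14, whose product acts early in the secretory pathway, had 9686 reads (9494 to 9881) over 147 nt, or 65.9 reads per nt. The other 4 ranged from 6 to 11 reads, namely intron 2 of spo20 with 11, intron 2 of spo9 and intron 3 of mug65 with 10 each, and intron 2 of mug65 with 6. Mug65 is annotated in spore wall assembly. Of these 4, only the spo20 intron, at 196 nt, lay inside 80 to 200 nt, the range in which most of the annotated introns were listed. The others measured 68, 76 and 272 nt.

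The 6 genes that kept a mug name and have an annotated product that does not name meiosis held 10 introns. Their median was 1623.5 reads, with a range of 5 to 38475. At least 1000 reads were listed for 6 of the 10, against 39.5% of the table, and mug64 contributed 3 introns to the group. Other genes whose product does not name meiosis, such as spo20, spo9 and those given a new name, are described apart from it. The values therefore do not stand for such genes in general. The single intron listed for mug72 had 5812 reads (5664 to 5963), or 51.0 per nt, and intron 5 of mug16 had 86 (68.8 to 106). Intron 2 of mug137 had 19 reads (11.4 to 29.7) at a length of 107 nt. It lies under the gene erm2 of the opposite strand.

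The introns of the 5 genes now under another name ranged from 11 to 9109 reads. The intron of mug71, now dph6, had 9109 reads (8923 to 9298), or 95.9 per nt, and so stood above spo14 per nt though below it in reads. That of mug185, now epr1, had 6396 (6240 to 6555), and that of mug186, now snx41, 241 (212 to 273). Intron 1 of mug152, now teb1, had 14 reads (7.65 to 23.5) and intron 2 of mug179, now atg1802, had 11 (5.49 to 19.7). None of the 8 introns in the 7 genes known by name only reached 1000 reads, where 39.5% of the table's introns did. These 8 ranged from 5 for intron 1 of mug8 to 549 for mug157, with 458 for meu26, 148 for intron 2 of mug8, 92 for mug162, 67 for mug15, 22 for mug95 and 7 for meu15.

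The counts stayed below those of the table when introns of like length were set side by side. The 36 introns had a median length of 106 nt, against 118 nt in the table, and 5 lay outside 80 to 200 nt. Within 80 to 200 nt, 31 of the introns had a median of 231 reads, against 883 for the 1027 of the table. At least 1000 reads were listed for 10 of the 31 (32.3%), against 48.5% of the table in that range. Between 80 and 99 nt, the median of the 12 was 76.5 reads, against 200, the 15 from 100 to under 150 nt had 458 against 1304.5, and the 4 of 150 to 200 nt had 1646 against 2498. In total 12 of the 36 lay above the table's median for their own length class, where 49.8% of the whole table did. How abundant each transcript was in the pool was not measured.

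**Figure D2:**
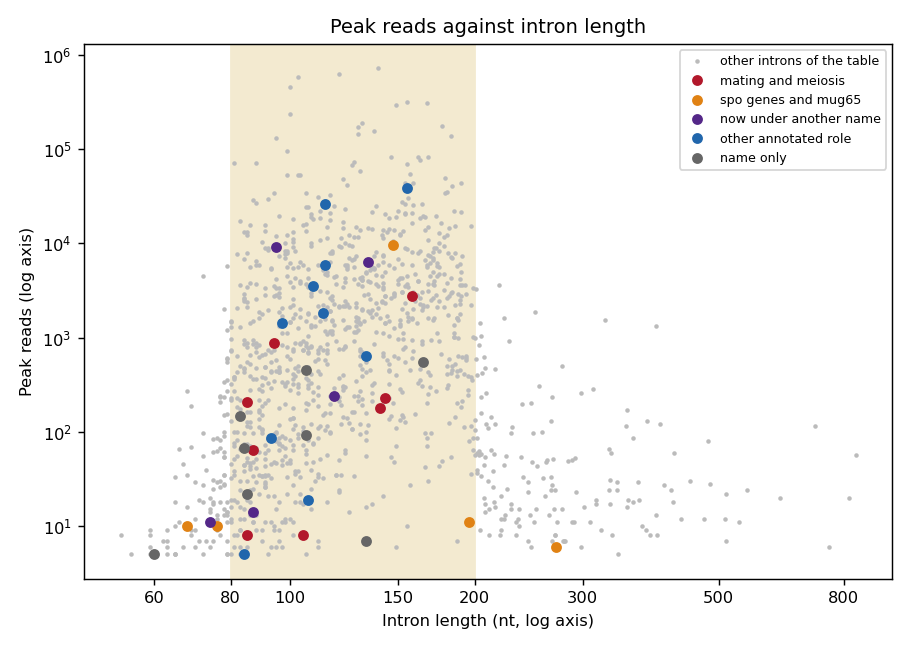
Peak reads against intron length, both on log axes, with the table in grey, the 36 introns coloured by role and the range of 80 to 200 nt shaded. The coloured points span 5 to 38475 reads, and the 5 outside the shaded range all have 11 reads or fewer.

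The counts of introns annotated in the same gene were set side by side. Whether such introns came from the same RNA molecules was not measured. In 6 of the genes more than 1 intron was listed, 13 introns in all. The BAR domain gene mug64 has 4 annotated introns. Intron 1 had 38475 reads (38092 to 38861), intron 3 had 25884 (25570 to 26201) and intron 4 had 631 (583 to 682), while intron 2, of 44 nt, was not listed. Introns 1 and 3 differed by 1.49-fold (1.46 to 1.51), and by 1.09-fold per nt. Intron 3 was 41.0-fold higher than intron 4 (37.9 to 44.5), and 47.9-fold higher per nt. The lengths are 155 nt for intron 1, 114 nt for intron 3 and 133 nt for intron 4. Both high introns begin with GTAAGA and intron 4 with GTAAGT. An antisense non-coding RNA, SPNCRNA.715, overlaps all 3, and its part in the counts was not tested.

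The widest gap among the 6 genes lay in mug182. Intron 1 had 3524 reads (3409 to 3642) at 109 nt, and intron 3 had 5 (1.62 to 11.7) at 84 nt, a ratio of 704.8 (301.7 to 2172). Intron 2, of 40 nt, was not listed. That ratio ranked 11 among the 181 genes of the table with more than 1 listed intron. In mug8, intron 2 had 148 reads at 83 nt and intron 1 had 5 at 60 nt, a ratio of 29.6 (12.4 to 92.5). The lowest count in the whole table is 5, shared by 17 introns, and both ratios rest on an intron with that count.

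In the other 3 genes the listed introns were closer. Intron 2 of rec11 was 3.25-fold higher than intron 8 (2.44 to 4.37), at nearly equal lengths of 85 and 87 nt. The 6 introns of rec11 that were not listed measured 37 to 66 nt. Introns 1 and 2 of the splicing factor gene mug161 had 1436 and 1811 reads, a ratio of 1.26 (1.18 to 1.35), and 1.08 per nt. For mug65 the ratio of intron 3 to intron 2 was 1.67 (0.549 to 5.58), an interval that includes 1. Per nt it was 5.96, at lengths of 76 and 272 nt. The highest intron exceeded the lowest by over 10-fold in 3 of the 6 genes, and in 58.6% of the 181 genes of the table. The median ratio was 16.4 over the 6 genes and 17.8 over the 181. With only introns of 80 to 200 nt the order turned, at 32.1 over the 4 genes left and 10.3 over 136. The first listed intron was the highest in 3 of the 6.

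**Figure D3:**
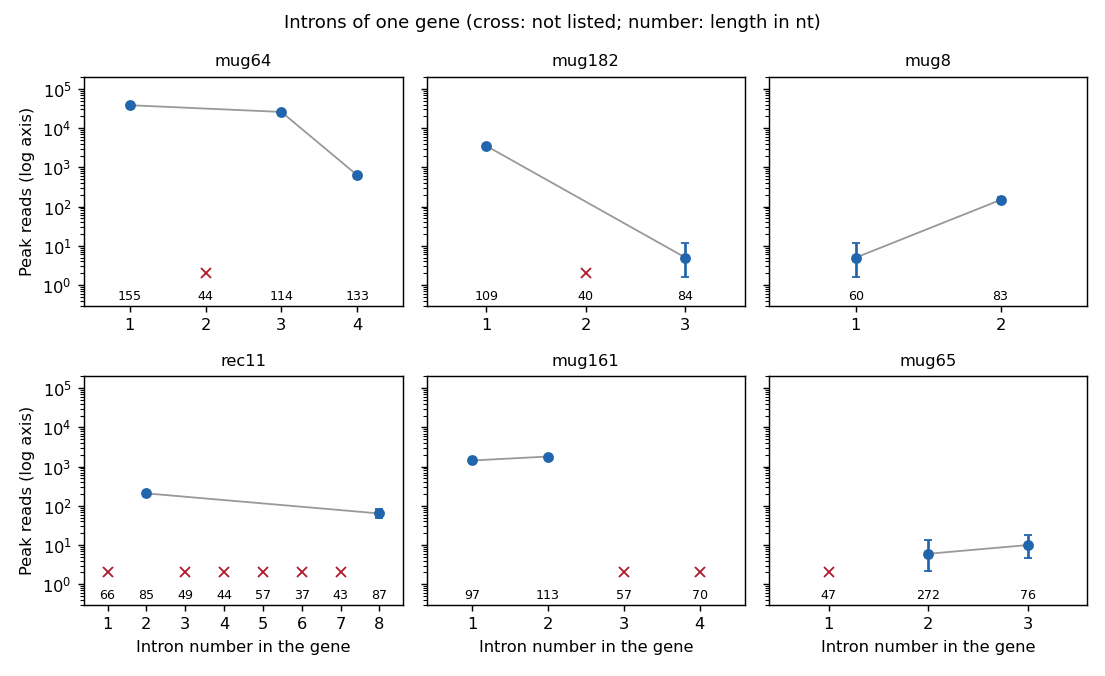
Peak reads on a log axis by intron number for the 6 genes with more than 1 listed intron, with 95% Poisson intervals, a cross for each annotated intron that was not listed and its length in nt below. Intron 4 of mug64 and intron 3 of mug182 drop far below intron 1 of their gene, whereas the introns of mug161 and mug65 lie close together in reads.

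The annotation gives these 29 genes 76 introns, of which 35 were listed (46.1%) and 41 were not. Of all 5250 mRNA introns of the annotation up to 2000 nt, 24% were listed, a share that covers genes with no listed intron as well. The 41 introns of the 29 genes that were not listed measured 37 to 71 nt. All 30 of 80 to 200 nt were listed, but the genes were chosen for having a listed intron. A count that does not depend on listing takes every protein-coding gene whose present symbol has one of these prefixes. There were 156 such genes, and 67 had an intron. They leave out the 5 renamed genes and include ste24, whose intron was listed under a systematic id with 9 reads. The listed intron of meu15 is not counted here, since it lies outside the present gene model. Their 147 introns had a median length of 54 nt, against 56 nt over all mRNA introns. Of the 147, 31 were listed, or 21.1% (15.3 to 28.4), against 24% of all mRNA introns. The interval includes 24%, but it treats introns of the same gene as independent and so is no test. A listed intron was found in 24 of the 67 genes (35.8%, against 42.5% of all protein-coding genes with an intron).

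By length, 0 of 92 introns under 60 nt were listed, against 0.135% of all mRNA introns of that size, and 4 of 21 of 60 to 79 nt (19.0%, Wilson interval 7.67 to 40.0), against 11.9%. The table held 26 of their 32 introns between 80 and 200 nt, or 81.2% (64.7 to 91.1), against 89.5% of all such mRNA introns. That interval includes the value for all genes, but it too treats introns of the same gene as independent and is no test. The 6 that were absent lay in 4 genes. All 3 introns of the recombination gene rec6, of 164, 87 and 85 nt, were among them, with one each of mug184 (156 nt), mug93 (154 nt) and spo4 (122 nt), a kinase subunit gene of meiosis.

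Several well-known genes of the programme had no intron of that size. The single intron of mes1, which acts in the passage to the second meiotic division, has 75 nt and was not listed. Neither were the 74-nt intron of the strand exchange gene dmc1, the 6 introns of hop1 (38 to 48 nt), the 4 of the cohesin gene rec8 (40 to 52 nt) or the 4 of rec12 (50 to 69 nt), which encodes the enzyme that makes the breaks.

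**Figure D4:**
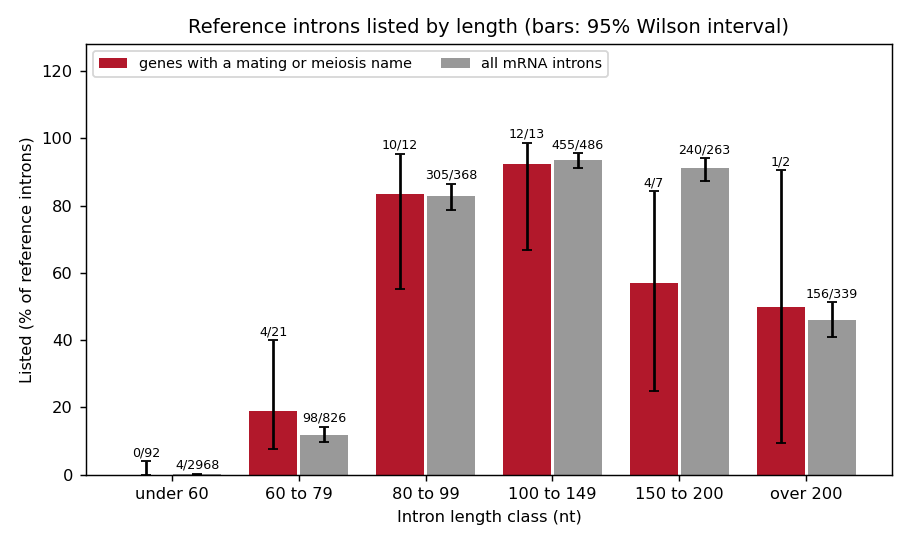
Percent of annotated introns that were listed, by length class, for protein-coding genes with a mating or meiosis name (red) and for all mRNA introns (grey), with 95% Wilson intervals and the listed number over the total above each bar. In both sets few introns under 80 nt were listed, and the widest gap is at 150 to 200 nt, with 4 of 7 against 240 of 263.

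Other genes of mating and meiosis outside these prefixes were counted as well. Of 62 symbols, 58 were used. One that was left out, hrs1, is now the symbol of a tRNA ligase gene, and the meiotic gene that once had it is mcp6. An intron is annotated in 29 of the 58 genes, and 8 of the 29 had a listed one (27.6%, against 42.5% of all protein-coding genes with an intron). Of their 8 introns between 80 and 200 nt, 7 were listed, where 89.5% of all such mRNA introns were. The listed introns had 8 to 7291 reads and a median of 236. The highest was intron 1 of mmi1, with 7291 reads. Mmi1 removes meiotic transcripts from growing cells. Intron 1 of kms1, a gene of the spindle pole and nuclear envelope, had 4079 reads, and intron 3 of the spore septin gene spn7 had 1316. The lowest was intron 1 of map1, which encodes a transcription factor of mating type, with 8. The 4 introns of crs1, the meiotic cyclin gene, measured 40 to 52 nt and were not listed.

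Branch reads placed the branch point in 21 of the 36 introns, which is 58.3%, against 58.5% of the table. Within 80 to 200 nt it was 19 of 31 (61.3%, against 68.3%). The branch reads were found by systematic id and intron number, and each 7-nt sequence lay at its stated distance from the intron end. The 21 introns had 207 branch reads, and each had a single listed position. A single position was listed for 650 of the 817 introns of the branch table, and 5 of the 21 had only 1 read and could show no other. Introns with branch reads had a median of 881 peak reads, and the 15 without had a median of 14, the highest being mug157 with 549. In the table these medians were 1614 and 62.

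The 3 introns with the highest peaks also had the most branch reads. Intron 1 of mug64 had 40 (28.6 to 54.5) at TATTAAC, with a listed distance of 12 nt to the 3′ splice site. Intron 3 of that gene had 34 (23.5 to 47.5) at TGCTAAC, 16 nt away, and its intron 4 had 9 (4.12 to 17.1) at TCCTAAC, 10 nt away. In the printed introns this is the number of bases after the capitals of the branch, the final AG included. Intron 2 of spo14 had 28 branch reads (18.6 to 40.5) at CGCTAAT, 17 nt away. Intron 2 of mug161 had 20 (12.2 to 30.9) at TGCTAAC, 11 nt away, and the mug185 (epr1) intron had 19 (11.4 to 29.7) at TACTAAT, 8 nt away. The fourth-highest intron by peak reads, that of mug71 (dph6), had 3 at TACTAAC, 7 nt away.

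Intron 2 of rec11 had many branch reads for its peak. It had 21 branch reads (13.0 to 32.1) at AACTAAT, 6 nt from the splice site, with 208 peak reads. That is 101 branch reads per 1000 peak reads, rank 68 among 756 introns found in both tables. Intron 8 of the same gene had 1 branch read with 64 peak reads, or 15.6 per 1000. The mug15 intron likewise had 7 branch reads at AATTAAC with 67 peak reads, or 104.5 per 1000. At the other end, intron 1 of mug72 had 1 branch read with 5812 peak reads, or 0.172 per 1000. Over the 21 introns the median was 4.54 per 1000, against 4.68 over the 756.

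The branch sequences varied. TGCTAAC was the most frequent, in 4 of the 21 introns, and led in 67 of the 817 introns of the branch table (8.2%). It was followed by TACTAAC in 3 (14.3%, against 16.6% of the branch table) and TATTAAC in 2, against 6.73%. In total 15 different sequences were seen. The fourth base was T in all 21 and in 808 of the 817. The fifth was A in 20 and in 752 of the 817, the exception among the 21 being TACTGAC in intron 2 of spo9 with 1 branch read. ste4 had TACTAAG in 3 reads, a sequence that led in 2 of the 817 introns. Intron 2 of mug8 had TCTTAAC, which also led in 2. The listed distance had a median of 10 nt and ranged from 6 to 17 nt, against a median of 11 nt in the table. In 3 of the 21 introns it was 16 nt or more, as in 80 of the 817.

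Of the 15 introns without branch reads, 7 held the letters CTAAN on the intron's own strand within the last 40 nt, N being any base. Over all 36 introns it was 24 (66.7%), against 77.7% of the table. The letters TTAAC, as in TATTAAC, were found in 10 of the 36 (27.8%, against 17.6% of the table) and in 6 of the 15. Both were searched on that strand alone because the branch lies in the intron RNA, CTAAN includes CTAAC and CTAAT, and an intron can hold both. A match there is only a match of letters. Neither set of letters was counted in the table's introns without branch reads, so the counts among the 15 have no background.

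At the 5′ end, GTAAGT was the most frequent start, in 15 of the 36 introns (41.7%, against 37.4% of the table). GTATGT was found in 4 (11.1%, against 24.4%), namely intron 2 of spo14, the ste4 intron, intron 1 of mug152 (teb1) and intron 2 of mug65. Rare starts were also present. GTAGGC in intron 5 of mug16, GTATCT in intron 1 of mug162 and GTCAGT in intron 4 of meu13 each occurred once in the whole table. TAG ended 26 introns (72.2%, against 72.3%), and CAG ended 9. The median GC content was 30.2% in both sets.

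An annotated gene on the opposite strand overlapped 24 of the 36 introns (66.7%, against 62.1% of the table). In 21 of these it was a non-coding RNA. The protein-coding gene oct1 lies opposite the listed introns of mug161, introns 1 and 2. The sources used here do not say how the counts treated strand, so reads from a gene and its antisense partner could not be told apart.

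The tables of added introns and skipped exons were searched for these genes as well. Of 222 added introns, which had a median of 117 reads, 6 (2.7%) lay at a gene with such a prefix or at one of the 29. Genes whose present symbol has such a prefix are 3.05% of all protein-coding genes. That share leaves out renamed genes, whereas the 6 include an intron at a renamed gene and introns antisense to genes with such a prefix. An intron that changes the 3′ gene model of mug108 had 130 reads (108.6 to 154.4), and frameshifting introns in the coding sequences of mug42 and mug2 had 97 and 61. Introns antisense to mcp3 and mug124 had 114 and 63 reads. One near the 5′ end of SPAC13G7.10, now teb1, had 50 reads, at chr1:2313235-2313339, upstream of the intron listed for mug152. None of the 23 skipped exons belonged to one of the 29 genes.

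Of the 36 introns 35 lie between coding exons, against 93.7% of the table. Keeping the intron would bring a stop codon into frame in 33 of the 35 (94.3%, against 95.6%), and the length was a multiple of 3 in 11 (31.4%, against 32.7%). The exceptions to the stop were 2. One is intron 1 of mug64, with the highest count, whose 155 nt shift the frame. The other is intron 5 of mug16, the last of its gene, whose 93 nt hold no stop in frame, so that keeping it would add 31 codons. Both properties are shared by 16 coding introns of the table (1.32%), a length divisible by 3 and no stop. No value here measures whether the intron is kept.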

How the data were processed

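The circular fraction was sequenced as 2 libraries, 1 per gel run. Bowtie 0.12.3 and SAMtools are named in the submitters' processing notes, without their roles. The peak caller, its limits, the annotation and build were not given in the sources used here. The deposited values are whole-number read counts per annotated intron, added intron or skipped exon, and branch sequences with a distance and a count, per the file headers. The tables' own names tie the annotated introns and branch points to the short run. The depth of the library is not known, and the 9296300 peak reads are a sum over listed introns.

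Of 1314 lines, 22 repeats were dropped. Positions were read as 1-based and compared with ASM294v3: 1259 of 1292 introns matched an annotated intron at both ends, all 1292 ran from GT to AG, and all 756 branch sequences that could be linked lay at the stated distance. Present gene names and products came from its annotation, and other roles are background knowledge. Introns were described by medians, counts and shares beside the whole table. Counts have exact Poisson intervals, shares Wilson intervals and ratios of counts exact conditional binomial intervals, all at 95%. The Poisson and ratio intervals were tested on simulated counts, and the Wilson intervals were not. No test was made, since each run has 1 library. Full values were given by a fixed rule: genes with several listed introns, the 8 highest and 5 lowest, introns with 5 or more branch reads, over 200 or under 70 nt, and renamed genes. The members and lists were chosen with earlier results of these data known. Python 3.11.15, numpy 2.4.6, pandas 2.3.3, scipy 1.17.1 and matplotlib 3.10.9 were used.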

Additional observations from a re-analysis of the deposited data

How the results depend on the processing

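Of 26 alternative values, 23 stayed within the 95% interval of the value reported, which is wide for 36 introns. Several of the 23 could not have moved. No line of these genes was repeated, and each intron with branch reads had a single listed position. Matching by either end could not raise a share of 100%. First against last listed gave the same pairs of introns as highest against lowest. The tally is therefore no measure of stability. The median of 162.5 reads ranged from 148 without the 5 renamed genes to 631 with a minimum of 50 reads, and was 177 once genes with a mug name were left out. It was 37.1% of the table's median, 26.2% within 80 to 200 nt, 40.7% in reads per nt and 53.3% with a minimum of 50 reads in both sets. A limit of 100 reads in place of 1000 raised the share of introns at or above it from 27.8% to 52.8%, and that of the table from 39.5% to 66.9%. The median ratio within genes changed from 16.4 to 32.1 with introns of 80 to 200 nt alone. The share of annotated introns listed was 100% for 80 to 200 nt in genes chosen for a listed intron, 46.1% over all lengths, and 81.2% at 80 to 200 nt over all genes with a fitting symbol, an alternative chosen after seeing the data. The single library, unknown depth and pooled conditions limit every value.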

Other observations

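The intron listed for meu15 (chr3:708197-708329, plus strand, 133 nt) is the single one of the 36 outside the present gene models. It ends 10 nt before the annotated start of meu15, whose model is marked as incomplete at that end and whose own introns measure 58 and 40 nt. It had 7 peak reads (2.81 to 14.4) and 2 branch reads at TTCTAAC, 7 nt from its end. With counts this low, its level can be given only with that interval.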
